A study of Drosophila melanogaster with 4 samples.

Results

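TATA-binding protein (TBP) peaks in the heterochromatic and centromere-side parts of the Drosophila melanogaster genome numbered 232 of the 7769 in the deposited list, or 2.99%. They were taken by position alone, on FlyBase release 5. Of them, 108 lay on chromosome 4 and 26 on the unplaced collection U. The 5 heterochromatic sequences with peaks in the list, 2LHet, 2RHet, 3LHet, 3RHet and XHet, held 56. The other 42 lay within the last 1 Mb before the last peak of 2L (23 peaks), 3L (8) and X (11). The comparison set, called the rest of the long arms below, was the 7153 other peaks of 2L, 2R, 3L, 3R and X. The remaining 384 peaks lay on Uextra, a second collection of unplaced sequence.

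The series holds 4 libraries from embryos, 2 of chromatin immunoprecipitated with a rabbit polyclonal antiserum against Drosophila TBP and 2 of input DNA. Both groups carry the same labels, the strain Exd-GFP-13T with genotype w; PBac{y[+]-attP-3B}VK00033, an extradenticle genomic transgene whose stop codon was replaced by GFP, stage 0 to 8 h and unknown sex. The protocol field of these samples instead describes y; bw cn sp flies and eggs collected for 8 to 16 h, and this conflict was not resolved. All 4 libraries are represented by a single peak list, so read depth is unknown, no value has a replicate error, and whole embryos mix all cell types. Intervals below are exact 95% intervals that cover counting error only and treat peaks as independent, which clustered peaks are not. No p-values were computed, because peaks are not replicates.

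TBP is the subunit of TFIID that binds the TATA element of core promoters, and it also takes part in transcription by RNA polymerases I and III. Heterochromatin is the compacted, repeat-rich chromatin that in flies surrounds the centromeres and fills the Y chromosome and most of chromosome 4. It carries few genes per length, and its marks are methylated histone H3 lysine 9 and the protein HP1a. Chromosome 4 is an exception among such regions, since its distal arm is packaged with HP1a and yet holds many active genes, among them the eye regulators eyeless and twin of eyeless and the Hedgehog effector cubitus interruptus. In release 5 the heterochromatin that could be joined to a chromosome but not to the arm itself is kept in the sequences ending in Het, and unjoined scaffolds are collected in U. No peak was assigned to a gene, because the gene table at hand is of another release, and no sequence of release 5 was used.

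The classes differed widely in how many TBP peaks they held per length. Chromosome 4 had 83.9 peaks per Mb (68.8 to 101; 108 peaks in 1.29 Mb), against 61.8 (60.4 to 63.2) on the rest of the long arms. The 3 arm ends together had 14.0 per Mb (10.1 to 18.9; 42 peaks in 3 Mb). The Het sequences had 8.23 per Mb (6.22 to 10.7; 56 peaks in 6.80 Mb) and U had 3.25 (2.13 to 4.77; 26 peaks in 7.99 Mb). Spans reach from a sequence's first peak to its last, so stretches beyond the outermost peaks, and any sequence without a peak, are not counted. As ratios to the rest of the long arms these were 1.36 for chromosome 4 (1.11 to 1.64), 0.227 for the arm ends (0.163 to 0.307), 0.133 for Het (0.100 to 0.173) and 0.0527 for U (0.0344 to 0.0772). Set against each other, chromosome 4 was 5.99 times as dense as the arm ends (4.16 to 8.77), Het was 0.588 times as dense as the arm ends (0.387 to 0.899), and Het was 2.53 times as dense as U (1.56 to 4.20). Chromosome 4 was also the only one of the 4 classes with more of its sequence under peaks than the rest of the long arms, 7.28% against 5.94%. The covered share was 1.27% at the arm ends, 0.496% in Het and 0.152% in U. With spans counted from position 1 instead of the first peak, the density ratio to the rest of the long arms was 1.30 for chromosome 4 (1.06 to 1.57). It was then 0.1075 for Het (0.081 to 0.140) and 0.0424 for U (0.0277 to 0.0622).

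The 3 arm ends were not alike. The end of 2L carried 23 peaks per Mb (14.6 to 34.5), that of X 11 (5.49 to 19.7) and that of 3L 8 (3.45 to 15.8). Relative to the remainder of the same arm the ratio was 0.381 on 2L (0.240 to 0.574), 0.202 on X (0.100 to 0.362) and 0.131 on 3L (0.0565 to 0.259). The 2L end was 2.88 times as dense as the 3L end (1.24 to 7.43), while the interval of its ratio to the X end (2.09, 0.979 to 4.75) included 1. When each arm was cut into 1 Mb windows from its centromere-side end, the end window held the fewest peaks of 24 on 3L and the fewest of 22 on X. On 2L another of the 22 windows, 5 to 6 Mb away, was poorer, with 16 peaks. Among all 116 windows of the 5 long arms the 3L and X ends were the poorest and the next poorest.

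**Figure D1:**
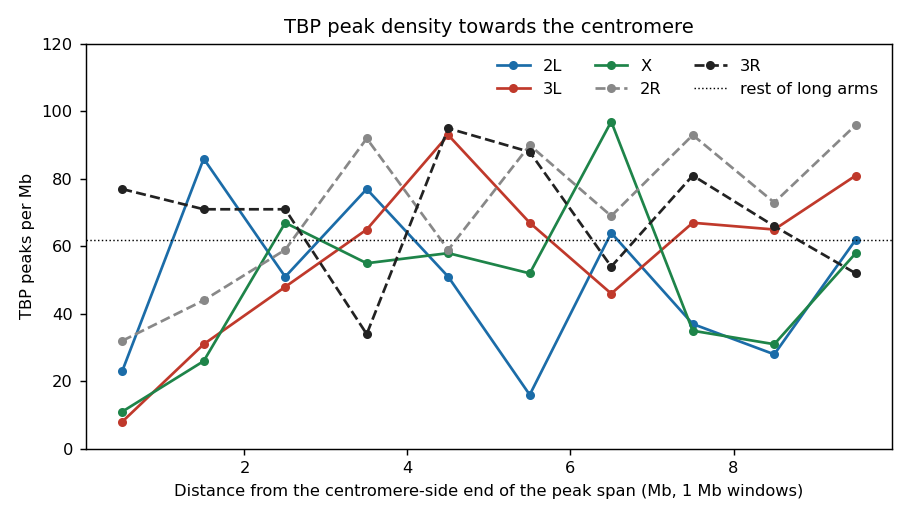
TBP peaks per Mb (vertical axis) in 1 Mb windows by distance in Mb from the centromere-side end of each long arm's peak span (horizontal axis); solid lines are 2L, 3L and X, dashed lines 2R and 3R, and the dotted line is the rest of the long arms at 61.8. The first windows of 3L and X hold 8 and 11 peaks, that of 2L 23, and that of 3R 77.

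The fall in density spanned different lengths on the 3 arms. On 3L the windows counted outwards from the end held 8, 31, 48 and 65 peaks, and on X 11, 26, 67 and 55. On 2L the second window already held 86 peaks, with the run of wide peaks of that arm inside it, and the third held 51. The centromere-side ends of the remaining arms, which lie at their low coordinates and were not among the members, showed both outcomes. The first 1 Mb of 2R held 32 peaks (0.518 times the rest of the long arms, 0.354 to 0.732) and was the poorest window of 21 on that arm. The first 1 Mb of 3R held 77 peaks (1.25 times, 0.982 to 1.56), above its arm's median window of 66.

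Within the 2L end the peaks became fewer towards the last peak, and the high scores lay in the outer stretches. The 4 successive stretches of 250 kb, taken towards the centromere, held 8, 6, 5 and 4 peaks, and their highest scores were 76.11, 65.93, 30.89 and 33.86. The score is the authors' value for a peak, without a stated scale, and serves here only to order peaks within the list. The highest-scoring peak of this end, at 22129297 to 22131795, scored 76.11 and was 2499 bp wide. It was followed by those at 22168247 to 22170095 (74.95, 1849 bp) and 22018769 to 22019547 (67.62, 779 bp). Its widest peak, at 22428313 to 22431678, measured 3366 bp and was the widest of all 232 members. Its narrowest peak began at 22132999, measured 207 bp and scored 9.63. The longest gap in the 2L end ran over 187 kb, from 22472189 to 22659292.

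On 3L, the 8 peaks were mostly weak, with 1 exception near the centromere-side end. From the outer side, they began at 23573531 (score 9.89, 291 bp), 23707705 (19.73, 452 bp), 23708376 (14.46, 430 bp) and 24020829 (23.36, 1140 bp). Nearer the end they began at 24224604 (10.15, 319 bp), 24457200 (102.43, 590 bp), 24529225 (7.66, 230 bp) and 24529629 (28.02, 1169 bp). The peak at 24457200 to 24457789 had the second highest score of all 232 members, while the other 7 scored at most 28.02. Gaps of 312, 232 and 203 kb divided this stretch, so that 4 of its 7 gaps reached 100 kb. Over the whole list 4.29% of gaps were that long, and on the rest of the long arms 2.90%.

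On X, 7 of the 11 peaks lay between 21844908 and 21942796. These included the 3 highest scores of this end, at 21882917 to 21884710 (66.51, 1794 bp), 21856545 to 21858792 (52.22, 2248 bp, also the widest) and 21941878 to 21942796 (37.39, 919 bp). Empty stretches of 343 kb (21501765 to 21844907) and 467 kb (21942797 to 22409473) flanked that group. The longer of these exceeded the longest gap anywhere in the rest of the long arms, 366 kb. Beyond it only 2 peaks were listed, at 22409474 to 22409701 (13.85, 228 bp, the narrowest of this end) and 22414681 to 22415654 (36.50, 974 bp). At the boundary of the 1 Mb stretch, the nearest members and non-members lay 57.4 and 49.1 kb from it on 2L, 42.9 and 199 kb on 3L, and 60.7 and 156 kb on X.

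**Figure D2:**
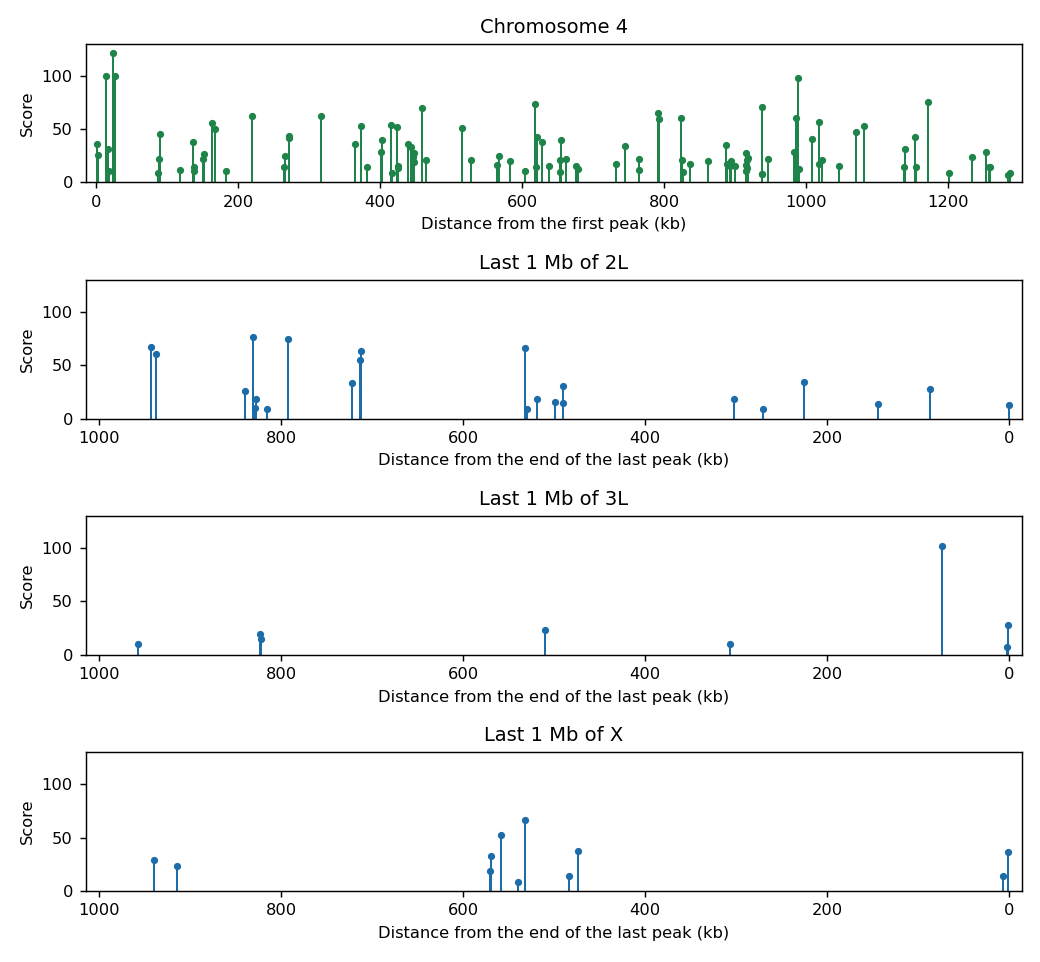
Deposited score of each TBP peak (vertical axis, score units) by distance in kb (horizontal axis) from the first peak of chromosome 4, and from the end of the last peak of 2L, 3L and X. Each stem is 1 peak; chromosome 4 has 108, and the ends have 23, 8 and 11, with the 467 kb empty stretch of X to the left of its last 2 peaks.

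Chromosome 4 carried TBP peaks in every 200 kb stretch between its first peak, which began at 63361, and its last. The sequence before the first peak was not counted as a gap. In stretches of 200 kb from the first peak chromosome 4 held 19, 9, 19, 18, 24 and 12 peaks, and the last 87.7 kb held 7. This corresponds to 45 to 120 peaks per Mb, with the second stretch (263361 to 463360, 45 per Mb) and the sixth (60 per Mb) below the long-arm average and the fifth (863361 to 1063360) the densest. No gap on chromosome 4 reached 100 kb (0 of 107). Its longest, 58.6 kb, ran from 91235 to 149802. The rest of the long arms was cut into 88 windows of the same length as chromosome 4 for scale. Of these windows, 10 held more peaks than chromosome 4 and 76 held fewer, and the window median was 79. In covered sequence 21 windows exceeded it and 67 did not. Its density therefore lay in the upper part of the range found among long-arm windows of its size, not beyond it.

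Scores on chromosome 4 had a lower median than on the rest of the long arms as deposited. Their median was 22.25 (20.28 to 28.22), against 28.83 (28.02 to 29.65), a ratio of 0.772 (0.703 to 0.979). With peaks within 1 kb merged the ratio was 0.849 and its interval included 1 (0.625 to 1.07). Only 41 of its 108 peaks (38.0%, 28.8% to 47.8%) scored above the long-arm median, which 50.8% of the whole list did. Of the 88 windows of its length, 84 had a higher median score and 4 a lower one. Scores of 80 or more were reached by 4 chromosome 4 peaks (3.70%) and by 12.7% of the rest of the long arms, with 13.8% over the whole list. The median width was 636.5 bp (485 to 871) against 728 bp (709 to 748), a ratio of 0.874 (0.666 to 1.20). With peaks within 1 kb merged the width ratio was 1.38 (0.885 to 1.66), and both intervals included 1. As deposited, 74 of the 88 windows had a larger median width and 13 a smaller one. Of the chromosome 4 peaks, 8, or 7.41%, reached 2000 bp, against 8.88% on the rest of the long arms and 8.32% over the list.

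The strongest TBP peak of chromosome 4, and of all 232 members, lay at 86937 to 88597 (score 121.96, 1661 bp). It ranked 407th in the list, so none of the 100 highest scores belonged to a member. The next 2 of chromosome 4 stood beside it, at 76719 to 78151 (100.36, 1433 bp) and at 88744 to 91234 (99.73, 2491 bp), and the latter began 146 bp after the strongest peak ended. These 3 belonged to a group of 5 peaks over 14.5 kb that came just before the longest gap. Ranks 4 and 5 fell at 1050494 to 1052840 (98.47, 2347 bp) and 1234230 to 1236077 (75.54, 1848 bp). The widest peak, of 2616 bp and score 60.3, spanned 1047420 to 1050035. It was followed in width by the peak of 2509 bp at 679746 to 682254, which scored 73.81, and by the one at 88744. The narrowest, at 1264221 to 1264421, measured 201 bp, which is also the smallest width in the whole list.

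TBP peaks on chromosome 4 stood in short tight groups. Of its 107 gaps, 39 (36.4%, 27.4% to 46.3%) were below 1 kb, against 25.0% (24.0% to 26.0%) on the rest of the long arms and 24% over the list. In all, 65 peaks (60.2%) had a neighbour within 1 kb, against 41.8% on the rest of the long arms and 40.2% over the list. Merging peaks within 1 kb left 69 regions on chromosome 4, and the density ratio then fell to 1.16 with an interval that included 1 (0.899 to 1.47). With scores of 20 or more alone the ratio was 1.28 (0.984 to 1.63). The group with most peaks held 5 narrow ones (223 to 302 bp, scores 10.42 to 28.02) between 978204 and 980783. A group of 4 between 1046363 and 1053843 had peaks over 83.3% of its 7.48 kb and included both the widest and the fourth strongest peak. Between 679746 and 685195 another 3 peaks covered 97.7% of 5.45 kb. The median gap was 5.60 kb (1.74 to 10.1) against 4.55 kb (4.32 to 4.77), and its interval includes the median of the rest of the long arms.

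**Figure D3:**
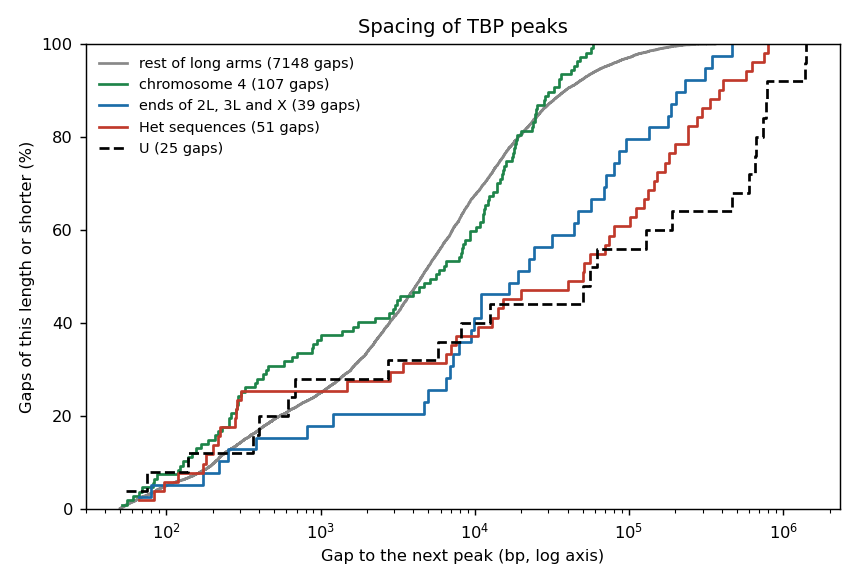
Share of gaps (vertical axis, %) at or below a given length (horizontal axis, bp, log scale) for 107 gaps on chromosome 4, 39 at the arm ends, 51 in Het, 25 in U and 7148 on the rest of the long arms. The chromosome 4 curve lies above that of the rest at 1 kb (36.4% against 25.0%) and stops at 58.6 kb, while the Het and U curves reach 793.5 and 1406.5 kb.

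In the Het sequences, TBP peaks were few, low-scoring and narrow. The median score was 19.91 (18.36 to 24.12), 0.691 times that of the rest of the long arms (0.637 to 0.837), and 15 of 56 peaks (26.8%, 15.8% to 40.3%) scored above the long-arm median, against 50.8% of the list. Median width was 543 bp (388 to 652), a ratio of 0.746 (0.533 to 0.896). With 49.5% of the list above the long-arm median width, 17 of the 56 (30.4%, 18.8% to 44.1%) were. None reached 2000 bp, and 0 of 56 allows a share of up to about 5.36%, by an approximate rule and not the exact interval used for other shares. Widths below 500 bp were found for 25 of the 56 (44.6%), against 33.8% on the rest of the long arms and 33.7% over the list. That share was not particular to Het, with 45.2% at the arm ends, 41.7% on chromosome 4 and 65.4% in U. The median gap was 50.5 kb (7.55 to 110), 11.1 times that of the rest of the long arms (1.66 to 24.2). Gaps of 100 kb or more made up 20 of 51 (39.2%), against 4.29% over the list, yet 13 of the 51 (25.5%, 14.3% to 39.6%) were below 1 kb, a share close to the 25.0% of the rest of the long arms.

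The 5 sequences contributed unequally. Density was 17.8 per Mb on 2LHet (6.55 to 38.8), 9.53 on 3LHet (5.90 to 14.6), 7.28 on 3RHet (3.33 to 13.8) and 5.00 on 2RHet (2.80 to 8.24). These spans start at the first peak, which began at 198138 on 2RHet and at 1142668 on 3RHet. Counted from position 1 instead, 3RHet was less dense than 2RHet, so the order of these 2 reversed. From there 3RHet held 9 peaks up to 2378658, and 2RHet held 15 up to 3199813. XHet held 5 peaks within 27.6 kb, which is 181 per Mb (58.7 to 422) over a span too short to compare with the others. Without 2RHet the Het ratio to the rest of the long arms was 0.175 (0.125 to 0.237), and the median gap ratio was 2.84 (0.327 to 15.3). The gap ratio was 4.40 without 3RHet (0.752 to 27.3) and 17.4 without 3LHet (2.84 to 39.8). Leaving out 3LHet also widened the intervals of the score ratio (0.684, 0.637 to 1.04) and the width ratio (0.684, 0.477 to 1.16) until they included 1.

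On 2LHet, 4 of the 6 peaks sat together in 2.90 kb. They began at 32195 (score 19.04, 862 bp), 33231 (9.89, 297 bp), 33750 (18.36, 252 bp) and 34219 (24.88, 874 bp) and covered 78.8% of that stretch. The remaining peaks stood far apart, at 168738 to 169120 (18.36, 383 bp) and 368114 to 368552 (38.89, 439 bp), with 199 kb between them. On XHet all peaks stood closer together. Its members began at 57435 (20.80, 498 bp), 60763 (45.30, 896 bp), 61742 (13.55, 327 bp), 75008 (37.39, 1670 bp) and 84228 (17.02, 856 bp). The peak at 75008 to 76677 was the widest of the 56 Het peaks, and the longest XHet gap was 12.9 kb (62069 to 75007).

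On 3LHet, which held 21 peaks, the main concentration was a group of 8 in 13.3 kb between 593305 and 606634. Its scores ran from 8.13 to 28.02. Inside it, 5 peaks followed each other at gaps below 1 kb between 600839 and 603646 and covered 82.7% of 2.81 kb. The highest scores of 3LHet lay elsewhere. They belonged to a peak of 632 bp at 1285420 to 1286051 (score 73.00), to one of 455 bp at 542308 to 542762 (49.21) and to the widest, of 1289 bp, at 2397353 to 2398641 (35.61). Its narrowest peak, at 602611 to 602814, measured 204 bp and scored 8.13. Its longest gap, 793.5 kb from 1397002 to 2190522, was the longest in the Het sequences.

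The 15 peaks of 2RHet were mostly solitary. Of its 14 gaps, 1 was below 1 kb and 9 were of 100 kb or more, and the longest ran over 754 kb from 1633812 to 2387759. The highest scores were at 369914 to 370597 (89.78, 684 bp), 470964 to 472467 (40.11, 1504 bp, the widest) and 3179167 to 3180023 (30.89, 857 bp). The narrowest, at 2629710 to 2629911, measured 202 bp.

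All 9 peaks of 3RHet were at most 870 bp wide, while their scores spread widely. In order they began at 1142668 (score 12.66, 325 bp), 1523942 (91.18, 590 bp), 1705704 (19.04, 578 bp), 1808403 (30.48, 383 bp) and 1809072 (16.04, 210 bp). The others began at 1823468 (49.21, 870 bp), 1898790 (9.89, 347 bp), 2308386 (30.00, 201 bp) and 2378169 (30.48, 490 bp). The median score was 30.0 (12.66 to 49.21). Of the 9, 5 (55.6%) exceeded the long-arm median score, near the 50.8% of the list. The median width was 383 bp (210 to 590). The longest gap was 409 kb, from 1899137 to 2308385.

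U had the lowest density and the lowest median score of the 4 classes. The median score was 16.7 (14.43 to 21.13), 0.579 times that of the rest of the long arms (0.501 to 0.733), and 5 of 26 peaks (19.2%, 6.56% to 39.3%) scored above the long-arm median, against 50.8% of the list. Among scores of 20 or more the interval of that ratio included 1 (0.630, 0.437 to 1.77). Median width was 430.5 bp (378 to 531), a ratio of 0.591 (0.519 to 0.729), and no peak exceeded 921 bp. With peaks within 1 kb merged the width ratio was 0.520 (0.403 to 1.05). The widest peak lay at 2684712 to 2685632 and scored 13.55, and the narrowest, of 201 bp, at 3479271 to 3479471. Groups and large empty stretches alternated. Of 25 gaps, 7 (28.0%, 12.1% to 49.4%) were below 1 kb, near the 24% of the list, and 11 (44.0%) were of 100 kb or more, against 4.29%. The longest was 1406.5 kb, from 7934717 to 9341179. Where scaffolds begin and end within U was not known, so these distances describe the file's coordinates and need not be distances along DNA. The highest score of U was 98.36, for a peak of 484 bp at 5687956 to 5688439. The next 2 were 82.98 for a peak of 412 bp at 4252776 to 4253187 and 40.90 for one of 278 bp at 7872189 to 7872466.

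**Figure D4:**
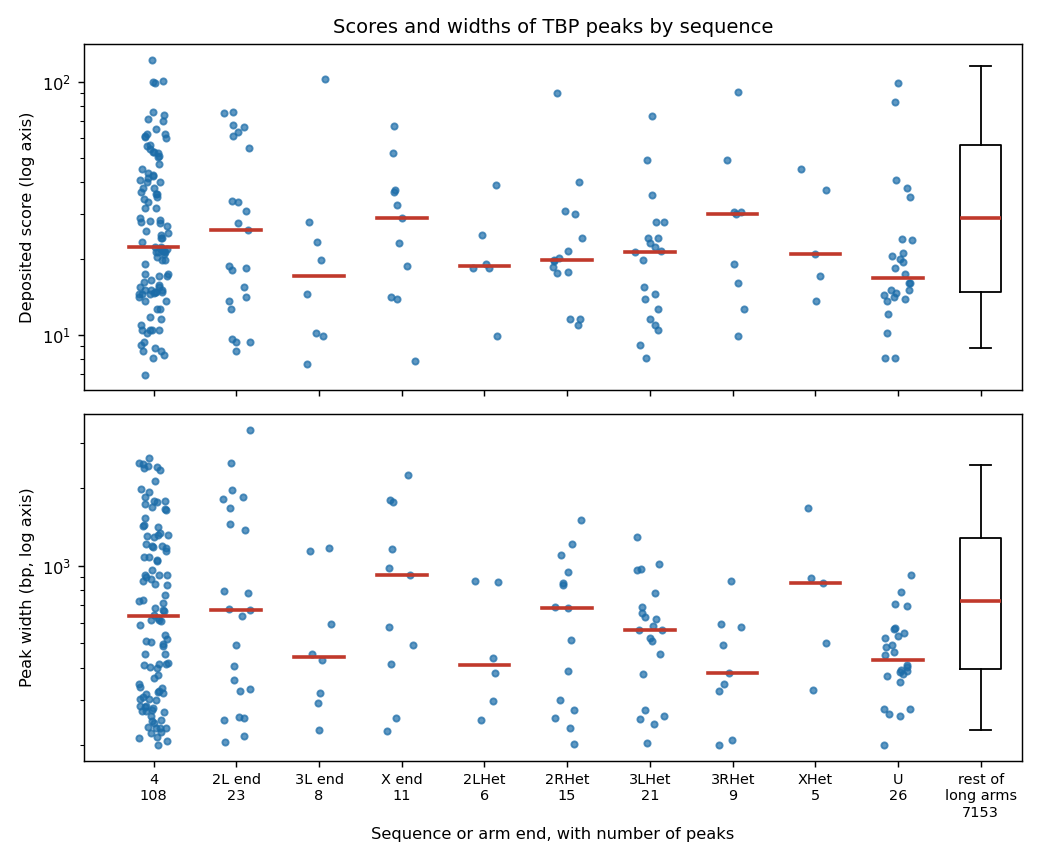
Deposited score (upper panel) and width in bp (lower panel), both on log axes, of every member peak by sequence or arm end, with the number of peaks under each name. Red bars are medians; the box shows the rest of the long arms (quartiles, whiskers from the 5th to the 95th percentile), with medians of 28.83 and 728 bp. Chromosome 4 spans scores of 6.97 to 121.96 and widths of 201 to 2616 bp, while U lies low in both (medians 16.7 and 430.5 bp).

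The rank correlation of score with width took lower values in Het and U than in the other classes, a difference that was not tested. Score and width ranked together on the rest of the long arms (Spearman's rho = 0.835 across 7153 peaks), on chromosome 4 (0.815, 108 peaks) and at the arm ends (0.833, 42 peaks). The rank correlation was 0.463 across the 56 Het peaks and -0.029 across the 26 U peaks. Within single Het sequences it ran from 0.504 on 2RHet (15 peaks) to 0.8 on XHet (5 peaks). Outside the 4 classes, the first 1 Mb of 2R had 0.555 (32 peaks) and Uextra 0.756 (384 peaks), so values below 0.8 were not particular to Het and U. These values describe peaks of 1 list, which share their libraries and the caller that set both measures. Below a score of 20, median widths outside U lay close together, at 337 bp in Het (274 to 563), 302 bp on chromosome 4 (270 to 364), 322.5 bp at the arm ends (255 to 430) and 339 bp on the rest of the long arms (333 to 348), and U had 456 bp (354 to 573). Between 20 and 40 the median was 390 bp in U (278 to 699; 7 peaks), 652 bp in Het (490 to 874; 21 peaks) and 732 bp (713 to 754) on the rest of the long arms. Between 40 and 80, chromosome 4 (1212 bp, 959 to 1764; 27 peaks) and the rest of the long arms (1226 bp, 1196 to 1255) again lay close together. The 5 Het peaks of that band had a median of 870 bp and ranged from 455 to 1504 bp, and the only U peak in it measured 278 bp.

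At the top of the score range the few Het and U peaks were narrow. All 5 peaks of Het and U that scored 70 or more were narrower than 700 bp, namely those on U at 5687956 (484 bp) and 4252776 (412 bp), on 3RHet at 1523942 (590 bp), on 2RHet at 369914 (684 bp) and on 3LHet at 1285420 (632 bp). The share was 5 of 5, against 41 of 1203 such peaks on the rest of the long arms (3.41%, 2.46% to 4.59%). On chromosome 4 it was 0 of 7 (an exact interval up to 41.0%), with widths of 837 to 2509 bp. At the arm ends it was 1 of 3, the 3L peak at 24457200, whose 590 bp set it apart from the 2 such peaks of the 2L end, at 1849 and 2499 bp. On Uextra 30 of 177 (16.9%, 11.7% to 23.3%) were as narrow. Peaks with both a score of 70 or more and a width below 700 bp made up 0.991% of the list. Both limits were chosen after the 5 Het and U peaks had been seen. The 5 of 5 therefore describes those peaks and is not an estimate, and its difference from the other shares was not tested.

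**Figure D5:**
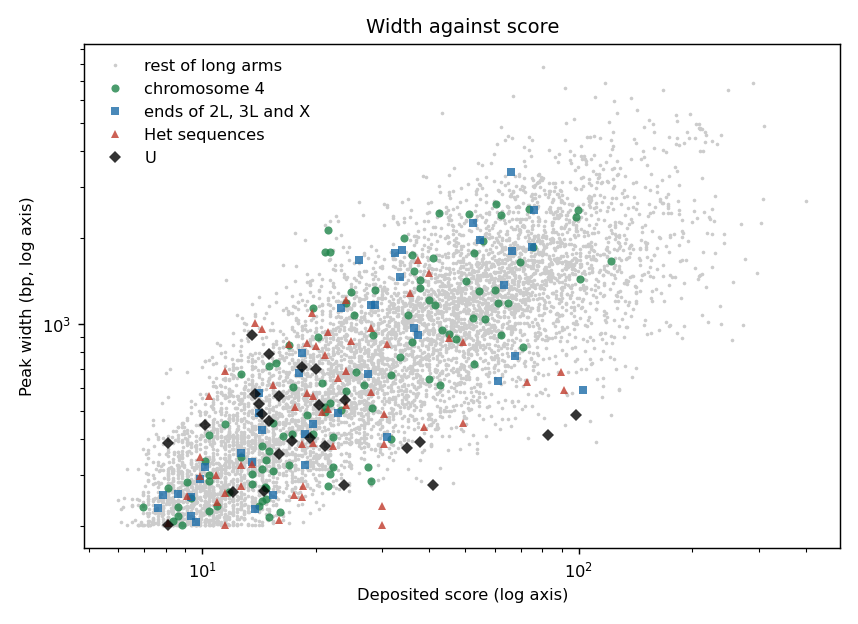
Peak width in bp (vertical log axis) against deposited score (horizontal log axis), 1 point per peak, for the 4 classes over the rest of the long arms in grey. The U and Het peaks with scores of 70 or more lie at 412 to 684 bp, at the lower edge of the grey points, of which 41 with such scores are also narrower than 700 bp, and the 7 of chromosome 4 lie at 837 to 2509 bp.

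For the arm ends, a difference from the rest of the long arms in score or width was not resolved. Their median score was 23.2 (15.4 to 32.6), a ratio to the rest of the long arms of 0.804 (0.534 to 1.13), and their median width was 613.5 bp (416 to 974), a ratio of 0.843 (0.571 to 1.34). Both intervals include 1 and are wide enough to hold the ratios seen in Het. After merging peaks within 1 kb the score ratio was 0.739 (0.491 to 0.906), and in the last 500 kb the width ratio was 0.557 (0.438 to 0.925). Other settings lay on the other side of 1, with intervals that included it. With ends of 2 Mb the score ratio was 1.08 (0.911 to 1.31) and the width ratio 1.07 (0.904 to 1.38). Among scores of 20 or more the width ratio was 1.16 (0.712 to 1.66). Within score bands, arm-end median widths were 1151.5 bp (674 to 1677; 12 peaks) against 732 bp at scores of 20 to 40, and 1849 bp (779 to 2499; 9 peaks) against 1226 bp at scores of 40 to 80. Scores above the long-arm median were found for 16 of the 42 (38.1%, 23.6% to 54.4%), against 50.8% of the list. Of the 3 members of this class at 2000 bp or wider, 2 were on 2L and 1 on X. Of 39 gaps, 7 (17.9%, 7.53% to 33.5%) were below 1 kb, against 24% over the list. Joined at gaps below 1 kb, the arm-end peaks made 35 groups, single peaks included, and 0 of these held 3 or more. On the rest of the long arms 360 of 5365 groups did, so few would be looked for among 35, and the difference was not tested. The median gap was 19.0 kb (7.26 to 69.1), 4.18 times that of the rest of the long arms (1.59 to 15.2). With ends of 2 Mb the gap ratio was 1.11 (0.688 to 2.02).

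At a distance of 10 kb chromosome 4 lay near the rest of the long arms in grouping, and the other classes lay lower. On chromosome 4, 93 of 108 peaks (86.1%) had another peak within 10 kb, near the 87.2% of the rest of the long arms and the 83.9% of the list. The share was 27 of 42 (64.3%) at the arm ends, 16 of 26 (61.5%) in U and 29 of 56 (51.8%) in Het. Differences among the arm ends, U and Het were not tested. Although density was 7.51 times lower in Het than on the rest of the long arms, more than 50% of its peaks thus stood within 10 kb of another.

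Uextra, the other unplaced collection, lay near the arm ends in density but far above U in score. It held 13.5 peaks per Mb (12.2 to 14.9), with a median score of 64.2 (59.8 to 72.0) against 16.7 in U. Its median width was 713.5 bp (693 to 739), and no Uextra peak exceeded 1740 bp. Only 11 of 383 Uextra gaps (2.87%, 1.44% to 5.08%) were below 1 kb, against 7 of 25 (28.0%) in U.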

How the data were processed

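Data came from 2 TBP immunoprecipitation and 2 input libraries. The authors deposited 1 peak list for the series, on FlyBase release 5 and with MACS as the source, per the file headers. Each line gives positions in bp and a deposited score whose scale is not given. MACS2, BWA, 2 versions of CASAVA (1.7.0.3 and 1.7.0.2) and the build BDGP5 appear, without roles, in lists per the submitters' processing notes. No source used here gives thresholds, the pooling of replicates or the handling of multiply mapped reads, and depth is unknown, so how these steps bear on peaks in repeat-rich sequence was not tested.

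Members were assigned by peak centre. Densities have exact Poisson intervals, density ratios exact conditional binomial (Clopper-Pearson) intervals, shares exact binomial intervals, and medians order-statistic intervals, all at 95%. The limit given for the Het share at 2000 bp or wider is approximate. The interval of a median ratio is that of the class median divided by the median of the rest of the long arms. Gaps run from the end of a peak to the start of the next. Interval coverage was checked on simulated data drawn independently, so the check does not cover the clustering of peaks. Named peaks were every member of a sequence or end with 10 or fewer, otherwise the 3 highest-scoring, the widest and the narrowest (on chromosome 4, the 5 highest-scoring, 3 widest and narrowest), and the longest gap. Members and classes were chosen with earlier results of these data known. Peak groups, window ranks, score bands and the limits of 70 and 700 bp were set after seeing the peaks. Tools were pandas 2.3.3, scipy 1.17.1 and numpy 2.4.6 under Python 3.11.15, with figures from matplotlib 3.10.9.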

Additional observations from a re-analysis of the deposited data

How the results depend on the processing

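No paired analysis was possible because the list carries no values per library, and no library could be left out for the same reason. Of 115 alternatives to the 16 ratios of a class to the rest of the long arms, 106 stayed within the interval of the reported ratio and 0 crossed 1 where that interval excluded 1. The count of 106 is no measure of stability. Some alternatives only trimmed the comparison set and could hardly move a ratio. Without the 2L run of wide peaks, for example, the Het density ratio was 0.134 against 0.133. Some intervals, such as that of the U gap ratio, were too wide to be left easily. Of the 83 alternatives to ratios whose interval excluded 1, 10 gave an interval that included it. With scores of 20 or more, U had a density ratio of 0.0317 and a width ratio of 0.366. Merging peaks within 1 kb gave a score ratio of 0.615 in Het and a width ratio of 1.38 on chromosome 4. Leaving out 2RHet moved the Het density ratio to 0.175, and leaving out the 2L end moved that of the arm ends to 0.154. With ends of 2 Mb the arm-end density ratio was 0.496 and the gap ratio 1.11 (interval 0.688 to 2.02), and with ends of 500 kb the width ratio was 0.557 (0.438 to 0.925). The gap ratio of U (12.2) had an interval of 0.601 to 132, which excluded 1 when peaks were merged (40.8) or limited to scores of 20 or more (82.1). The 10 were the chromosome 4 density (merged, or scores of 20 or more) and score ratios (merged), the U score (scores of 20 or more) and width ratios (merged), the Het score and width ratios without 3LHet, the Het gap ratio without 2RHet or 3RHet, and the arm-end gap ratio with ends of 2 Mb, each with its value above. Leaving out single Het sequences and the first 1 Mb of 2R and 3R were added after seeing the data. The cause was not tested. Unknown depth limits any statement on weak or missing peaks.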
